A study of Mus musculus with 20 samples.

Results

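The immediate early and AP-1 genes are 10 genes chosen by name from the 45705 genes of the table, namely Fos, Fosb, Fosl1, Fosl2, Jun, Junb, Jund, Egr1, Atf3 and Ier2. They were followed over 20 RNA-seq libraries of cells sorted from the subventricular zone of Swiss Webster mice at postnatal day 5, with litters pooled and males and females not separated. The 5 sorted populations were neural stem cells (NSCs, CD133+CD15+ cells without CD140a or NG2) and 4 progenitor gates, each sequenced once in each of 4 batches. BNAP/GRP1 and GRP2/MP3 carried NG2 without CD140a and were split by CD15, while PFMP and GRP3 carried both NG2 and CD140a and were split by CD15 in the same way. BNAP/GRP1 and GRP2/MP3 are each a gate that holds a pair of cell kinds with a shared antigen profile. The question was whether these genes followed the sorted population or the batch. No undissociated tissue was among the samples, and the tissue behind all 20 libraries was digested with Liberase, triturated and sorted.

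Immediate early genes are transcribed within minutes of a stimulus from factors that are already in the cell. Fos and Jun proteins pair through leucine zippers to form AP-1, which binds DNA at TGANTCA, and Atf3 is a stress-induced member of the same basic leucine zipper (bZIP) class. Growth factors, depolarization, heat and enzymatic dissociation of tissue all switch such genes on.

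Promoters are shown because binding sites near the start site take part in the induction of such genes. RefSeq promoter entries (build GRCm38.p6) were found for 7 of the 10 members, and the 4 that hold TGACG are printed, from 250 bases before the start up to the base before it, 5′ to 3′ on the strand of the gene. Capitals mark TGACG on either strand, which is the core of the CREB and ATF site TGACGTCA.
Fos (chr12:85473640-85473889, plus strand): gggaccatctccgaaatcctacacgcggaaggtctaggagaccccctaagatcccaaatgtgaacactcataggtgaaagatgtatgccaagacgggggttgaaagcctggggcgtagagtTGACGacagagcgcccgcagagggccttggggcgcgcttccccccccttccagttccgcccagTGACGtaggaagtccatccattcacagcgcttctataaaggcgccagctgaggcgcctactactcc
Fosb (chr7:19310046-19310295, minus strand): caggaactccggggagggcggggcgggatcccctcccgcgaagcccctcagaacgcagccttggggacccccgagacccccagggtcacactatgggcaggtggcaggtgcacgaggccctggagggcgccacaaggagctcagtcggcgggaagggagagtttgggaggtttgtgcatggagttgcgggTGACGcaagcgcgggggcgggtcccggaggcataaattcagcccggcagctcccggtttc
Junb (chr8:84978749-84978998, minus strand): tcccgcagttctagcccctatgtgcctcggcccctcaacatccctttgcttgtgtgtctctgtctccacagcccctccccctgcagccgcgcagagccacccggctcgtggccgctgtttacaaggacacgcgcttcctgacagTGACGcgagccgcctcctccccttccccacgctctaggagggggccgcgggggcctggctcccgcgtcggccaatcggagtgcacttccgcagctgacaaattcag
Atf3 (chr1:191183334-191183583, minus strand): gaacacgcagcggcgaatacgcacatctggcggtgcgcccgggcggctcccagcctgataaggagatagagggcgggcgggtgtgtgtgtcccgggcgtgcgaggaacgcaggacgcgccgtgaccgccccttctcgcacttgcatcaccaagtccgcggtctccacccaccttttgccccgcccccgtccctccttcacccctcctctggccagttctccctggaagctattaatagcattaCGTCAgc
TGACG was found in these 4 promoters and in none of those of Fosl2, Jun and Jund, and 17.8% of the 32851 promoters of the same length held it. The longer TGACGT, which contains TGACG, was found in Fos, 66 bases before the start, and in Atf3, 8 bases before the start, against 6.47% of all promoters. The full TGACGTCA (1.55% of all promoters), the AP-1 motif TGANTCA (6.75%) and the serum response element core, the CArG box (1.47%), were found in none of the 7. A TATAAA stood in Fos alone, 33 bases before the start, and in 12.4% of all promoters. Both strands were searched, and a match is a description of letters in this window. Sites farther than 250 bases before the start were not looked at, nor were promoters of Egr1, Fosl1 and Ier2, which had no entry. The Jund entry ends at chr8:70697738, ahead of the GENCODE start of the gene at 70698949. The bases after its start were not found in a Jund transcript, so its lack of matches may not describe the promoter of that gene. The Atf3 entry lies inside the GENCODE span of its gene, chr1:191170296-191218039.

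Values are RPKM, which corrects reads for the length of a gene and for the size of a library. The RNA was amplified before sequencing, so levels of different genes are set side by side only as a rough guide. The file gives no read totals, so absolute depth is unknown, and the columns of the 20 libraries summed to between 955067 and 2407640 RPKM. Batch 3 stood apart from the rest. Its 5 populations correlated with each other at r of 0.940 to 0.970 over all 45705 genes. Different populations within batches 1, 2 and 4 had median r of 0.844, 0.795 and 0.747. Libraries of the same population in different batches had a median r of 0.718 (0.284 to 0.954). The summed level of 6 erythrocyte markers was 228440 to 252653 RPKM in batch 3 and 11.5 to 26515 RPKM in the other 15 libraries, and that of 7 lung epithelium markers was 983 to 1115 RPKM against 0.0235 to 77.1 RPKM. Several lists of brain markers were low there, with 7 neuroblast markers summing to 2.63 to 18.1 RPKM in batch 3 and to 49.5 to 576 RPKM elsewhere. The 8 neural stem cell and astroglial markers summed to 1125 to 1205 RPKM in batch 3 and to 367 to 15096 RPKM elsewhere. Singly, 7 of these 8 were lower in batch 3 than in the other batches and 1 was higher. The 7 ependymal markers followed the gate within batch 3, with a sum of 1231 RPKM in NSCs and 2.34 to 6.12 RPKM in the progenitors. Batch 3 libraries thus went against their tissue label on the erythrocyte, lung epithelium and neuroblast lists, and in most genes of the neural stem cell and astroglial list. They did not on the ependymal list, and results are given with and without them. In batch 4 the median over all genes was 8.30 RPKM in BNAP/GRP1, 2.02 in GRP3, 1.61 in NSCs, 0.977 in GRP2/MP3 and 0.0079 in PFMP. It was at most 0.237 RPKM in the libraries of batches 1, 2 and 3. The batch 4 libraries other than PFMP had 37856 to 39689 genes above 0 and PFMP had 24102, beside at most 31999 in batches 1, 2 and 3. The part of this raised low end in the batch 4 differences was not tested.

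Fos, which encodes the best known AP-1 subunit, had the highest mean RPKM of the members, 356 RPKM over 20 libraries. In the NSCs of batches 1 to 4 Fos stood at 1078, 586, 16.5 and 704 RPKM. In GRP2/MP3 it stood at 109, 1635, 16.1 and 139 RPKM. Each population thus held high and low libraries, and in batch 3 all 5 were low. BNAP/GRP1 had 334, 107, 18.8 and 22.3 RPKM, GRP3 had 420, 934, 16.7 and 159 RPKM, and PFMP had 441, 307, 14.7 and 69.1 RPKM. Within batch 3 the highest Fos value was 1.28 times the lowest, whereas it was 9.87, 15.3 and 31.5 times the lowest in batches 1, 2 and 4. Fosb, the paralog whose protein pairs with the same Jun partners, ran from 3.11 to 104 RPKM in the 15 libraries outside batch 3 and from 0.0484 to 0.539 RPKM within it. Its 2 highest libraries were GRP2/MP3 of batch 2 with 104 RPKM and the NSCs of batch 1 with 74.4 RPKM.

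Fosl1 and Fosl2 encode the Fra proteins, which lack the strong activation domain of Fos and Fosb. Fosl1 was at 0 to 0.324 RPKM in the 10 libraries of batches 1 and 2, and it was listed at 0 in 4 of them. In batch 3 Fosl1 stood at 17.5 RPKM in NSCs, 20.3 in GRP3, 19.3 in PFMP, 19.8 in BNAP/GRP1 and 23.4 in GRP2/MP3. In batch 4 Fosl1 was 6.14 RPKM in BNAP/GRP1, below the median of all genes in that library, and 0.115 to 1.16 RPKM in the other populations. Batch 3 thus held the only Fosl1 values above 6.14 RPKM. Fosl2 was 8.59 to 10.9 RPKM in batch 3 and 0.324 to 15.9 RPKM elsewhere, so its ranges overlapped.

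Among the Jun genes, Jun, which codes for the main transactivating partner of Fos, ranged from 10.6 to 181 RPKM outside batch 3 and stood at 38.2 to 46.3 RPKM in batch 3. Junb, often an antagonist of Jun at AP-1 sites, was 144 to 160 RPKM in batch 3 against 3.95 to 61.6 RPKM in the other 15 libraries. Jund, the Jun gene expressed in resting cells, was 54.2 to 61.0 RPKM in batch 3 against 5.85 to 34.6 RPKM elsewhere. Junb and Jund thus did not overlap between batch 3 and the rest, while Jun did. In GRCm38 with GENCODE M21, Fos lies at chr12:85473890-85477273, Jun at chr4:95049034-95052222, Junb at chr8:84974484-84978718 and Atf3 at chr1:191170296-191218039. GENCODE places a gene on the opposite strand over part of Jun (Junos), Junb (Prdx2), Jund (Gm11175), Fosl1 (Ccdc85b) and Atf3 (Gm24748). Strand-specific counting is not stated, so reads of such partners cannot be told apart from those of the member. This holds for the batch 3 values of Junb too.

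Egr1, a zinc finger factor induced through the serum response element, reached 1594 RPKM in GRP2/MP3 and 1117 RPKM in GRP3 of batch 2. Its range was 131 to 674 RPKM in batch 1 and 117 to 1594 RPKM in batch 2. In batch 3 Egr1 was 5.71 to 9.34 RPKM, and in batch 4 it was 14.2 to 98.3 RPKM. No library of batches 3 or 4 reached the lowest of batches 1 and 2. Ier2, a nuclear immediate early protein outside the bZIP class, lay between 20.4 and 498 RPKM outside batch 3 and between 48.3 and 61.2 RPKM within it, so these values overlapped too.

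Atf3 was the member with the largest share of its variation between populations outside batch 3. The NSCs had 11.5, 23.3 and 62.7 RPKM in batches 1, 2 and 4. BNAP/GRP1 had 29.4, 82.6 and 6.02 RPKM and GRP2/MP3 had 35.3, 149 and 8.41 RPKM. GRP3 had 1.60, 0.787 and 2.21 RPKM and PFMP had 0.337, 0.513 and 2.51 RPKM. All 6 libraries of the CD140a+ gates were thus below all 9 of the other populations, a separation that 0.196% of the 27614 genes tested shared in that direction and that was looked for after the values were seen. In batch 3 Atf3 was 252 to 305 RPKM in every population, GRP3 and PFMP included.

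**Figure D1:**
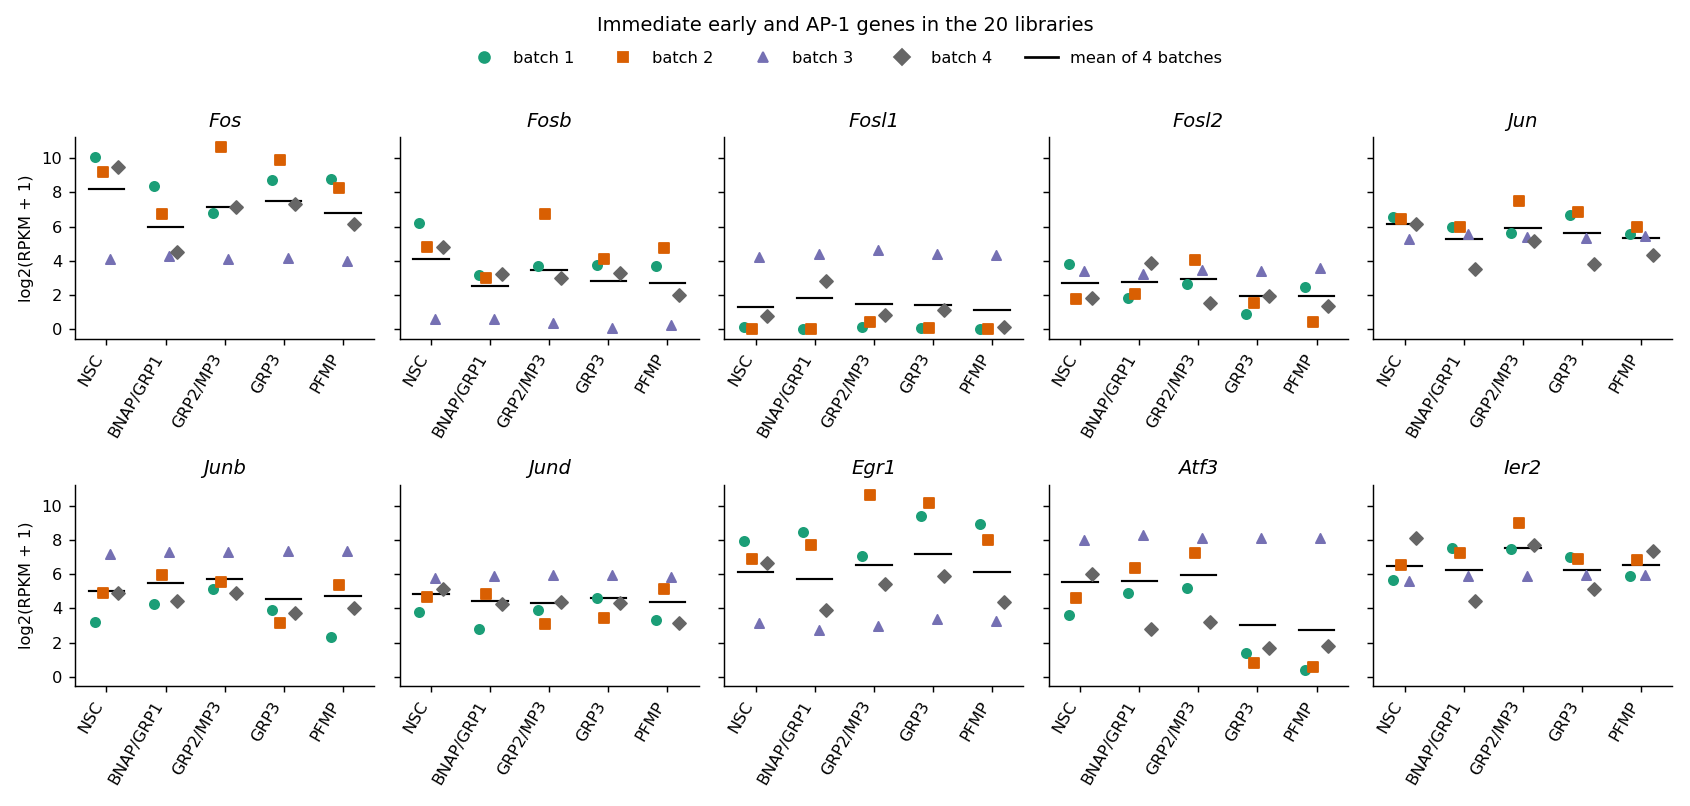
Level of each member as log2(RPKM + 1) on the vertical axis in the 5 sorted populations on the horizontal axis, 1 point per library coloured and shaped by batch, with the mean of the 4 batches as a bar. The triangles of batch 3 lie level across the populations, below all other points for Fos, Fosb and Egr1 and above them for Fosl1, Junb, Jund and Atf3.

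The comparison of each progenitor with NSCs asked whether a population carried more or less of these genes. With limma on log2(RPKM + 1), 0 of 10 members were called at an adjusted p under 0.05 in BNAP/GRP1, GRP2/MP3, GRP3 or PFMP, where 0.76%, 1.12%, 1.05% and 1.14% of all genes tested were called. At an unadjusted p under 0.05 the count of members was also 0 in each of the 4 comparisons over all 20 libraries. With the batch as a replicate block, 0 members were called at an adjusted p under 0.05. The paper, which tested with DESeq2, lists Fosb and the bZIP gene Atf5 as lower than NSCs in GRP3 alone at that threshold. Neither fit on RPKM called them. The test of any difference among the 5 populations called 0 members against 0.786% of all genes, and the 6 direct comparisons between progenitors called 0 members and 0% of all genes (84 to 1355 genes at an unadjusted p under 0.05).

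The intervals of these differences were wide. Fos was lower than in NSCs by a log2 difference of -2.22 in BNAP/GRP1 (SE 1.53, 95% interval -5.41 to 0.98, adjusted p = 0.866). For Fos the difference was -1.04 (GRP2/MP3), -0.70 (GRP3) and -1.43 (PFMP), each with the same SE. Mean Fos levels ran in the order NSC (596 RPKM ± 440), GRP2/MP3 (475 ± 775), GRP3 (383 ± 404), PFMP (208 ± 201) and BNAP/GRP1 (121 ± 148, SD, n = 4 each), and no neighbours in this order differed beyond their spread. In PFMP Fos was below NSCs in 4 of 4 batches and in GRP3 in 2 of 4. Fosb differed from NSCs by -1.31 in GRP3, by -1.43 in PFMP, by -1.60 in BNAP/GRP1 and by -0.67 in GRP2/MP3 (SE 1.32). Fosb was below NSCs in 4 of 4 batches in GRP3 and PFMP, as 9.07% of all genes tested were in GRP3 and 12.3% in PFMP. In batch 2 the Fosb difference in PFMP was only -0.022, and in batch 3 Fosb was at most 0.539 RPKM in any population. Egr1 differed by -0.44 in BNAP/GRP1, 0.37 in GRP2/MP3 and 1.05 in GRP3 (SE 1.76), with PFMP at -0.0035 (95% interval -3.67 to 3.67), and its 95% interval in GRP3 ran from -2.62 to 4.71. Atf3 differed by -2.55 in GRP3, -2.81 in PFMP, 0.04 in BNAP/GRP1 and 0.39 in GRP2/MP3 (SE 1.73), and the interval in PFMP ran from -6.41 to 0.79.

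Genes that stand around the members were described by lists. Of 27 other immediate early genes tested, led in level by Ier3, Nfkbia and Btg2, 0 were called in any progenitor against NSCs, with 1 to 3 of them at an unadjusted p under 0.05. With the replicate block 2 were called, Klf4 (-2.04, adjusted p = 0.0346) and Sik1 (-1.67, adjusted p = 0.0472), both lower in PFMP. Their median difference was -0.17 in BNAP/GRP1 (0.38 over all genes tested), -0.42 in GRP3 (0.05), -0.70 in PFMP (-0.20) and 0.34 in GRP2/MP3 (-0.08). None of 18 other bZIP partners (Atf4, Cebpb and Atf1 highest), 18 upstream kinases and factors (Map2k1, Map2k2 and Mapk3 highest) and 11 AP-1 target genes (Hmox1, Il6 and Plaur highest) was called in these comparisons, with at most 1 gene of a list at an unadjusted p under 0.05. Of 11 heat shock genes, 1 was called, in BNAP/GRP1, Hsp90aa1, the inducible cytosolic HSP90. It fell in BNAP/GRP1 by 3.37 on the log2 scale (SE 0.68, adjusted p = 0.0154), from a mean of 1971 RPKM ± 939 in NSCs to 211 ± 131 in BNAP/GRP1 (SD, n = 4 each). With the replicate block Hsp90aa1 was called lower in all 4 progenitors (adjusted p of 0.0034 to 0.0481), and Hsph1, an HSP110 chaperone, in BNAP/GRP1 and GRP2/MP3. Of the cell type markers, 7 of 7 ependymal markers were called lower in each progenitor than in NSCs, with medians of -7.32 to -8.12. Without the block, no other marker list had a gene called against NSCs. Oligodendrocyte precursor markers had 0 of 7 called in GRP3 (median 4.82) and in PFMP (4.08). Microglia markers had 0 of 10 called in GRP2/MP3 (median 4.28). That fit thus left large marker differences uncalled too, so 0 members called does not show that the populations were alike in them.

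The batch term of an additive model of population and batch answered the other side of the question. It called 8 of 10 members, all but Fosl2 and Ier2, while it called 59.8% of all genes tested. The labels number the batches and do not say what their libraries shared. The libraries of a batch are not independent, so these p-values measure the spread between libraries within batches and not that between batches. Batch took a median of 68.7% of the sum of squares of the members and population took 10.3%, beside 43.9% and 14.3% over all genes tested. Fosl1 had the largest batch share (93.5%), followed by Egr1 (84.8%) and Junb (77.3%). Fosl2 (29.0%) and Ier2 (22.0%) had the smallest, below the median of all genes.

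**Figure D2:**
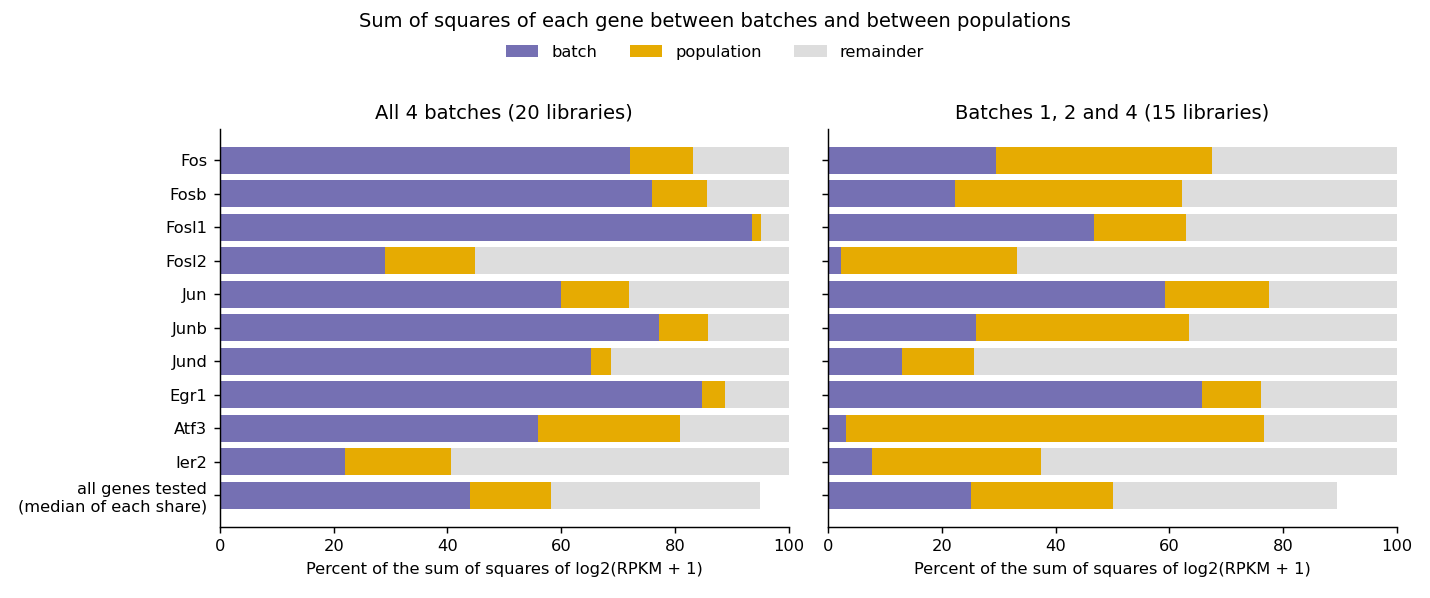
Percent of the sum of squares of log2(RPKM + 1) that lay between batches, between populations and in the remainder for each member, over all 20 libraries on the left and over the 15 libraries of batches 1, 2 and 4 on the right. The lowest bar gives the median of each share over all genes tested, which need not sum to 100. The batch share of Atf3 goes from 55.9% to 3.20% and its population share from 25.1% to 73.4% when batch 3 is left out.

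Set against the mean of the other batches, batch 3 was higher in 5 members, Atf3, Fosl1, Junb, Jund and Fosl2, where 12.5% of all genes tested were called higher. The same batch was lower in 3 members, Egr1, Fos and Fosb, where 22.6% of all genes were called lower. Jun (-0.33) and Ier2 (-0.98) were not called. Atf3 was higher by 4.74 on the log2 scale (SE 0.69, adjusted p = 3.38e-05) and Fosl1 by 3.95 (SE 0.34, adjusted p = 6.27e-08). Junb was higher by 2.90 and Jund by 1.82. Fosl2, with 1.28 and an adjusted p of 0.0494, lost its call when any of 15 of the 20 libraries was left out. In the opposite direction, Egr1 fell by 4.32 (SE 0.51, adjusted p = 2.96e-06), Fos fell by 4.01 (SE 0.55) and Fosb fell by 3.65 (SE 0.45). The median over all genes tested was -0.64. The 5 libraries of batch 3 lay above all 15 others in 4 members (5.18% of all genes) and below all 15 others in 3 (6.97%). AP-1 and immediate early members therefore split within the family, with Fos and Fosb low where Fosl1, Junb and Atf3 were high.

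Related genes were higher more often than lower in batch 3. Of 27 other immediate early genes, 12 were higher and 4 lower in batch 3. Ier3, an early response gene tied to survival, was 592 to 703 RPKM in batch 3 and higher by 3.77. Gadd45b, a stress-induced gene of the GADD45 family, was 140 to 159 RPKM there against 1.01 to 91.6 RPKM elsewhere, and Nfkbia, the inhibitor of NF-kB, was higher by 3.17. Ier5 was higher by 2.57, while Cyr61, a secreted matrix protein named here after its value was seen, was lower by 3.06. Among 18 other bZIP partners 12 were higher and 0 lower, led by Cebpb (5.23), a factor of myeloid and acute phase genes. Atf4, the factor of the integrated stress response, was 379 to 438 RPKM in batch 3 against 10.4 to 122 RPKM elsewhere. Batf, an AP-1 inhibitor of leukocytes, was higher by 3.87 and Mafk, a small Maf protein, by 2.39.

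Of 11 AP-1 target genes, 8 were higher and 1 lower, with a median of 4.12. Hmox1, the haem-degrading oxygenase, was 3530 to 3995 RPKM in batch 3 and 0.805 to 60.5 RPKM in the other 15 libraries. Il6 was higher by 7.76, Mmp13, a collagenase, by 6.15 and Cd44, the hyaluronan receptor, by 4.93. The member of that list that went the other way was Ccnd1, a D cyclin named after its value was seen, at -3.49. Of 18 upstream kinases and factors 6 were higher and 2 lower, with Mkl1, a cofactor of serum response factor (2.35), Mapk3 (2.29) and Rps6ka1 (2.25) higher and the neural kinase gene Mapk10 (-2.65) lower. Of 11 heat shock genes 4 were higher and 1 lower. The inducible HSP70 genes Hspa1b (4.28) and Hspa1a (3.56) led that list, followed by Hspb1 (2.53) and Hspa8 (1.74).

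Cell type markers moved with batch 3 as well. Of 10 microglia markers 5 were higher and 2 lower, and their sum was 3583 to 3949 RPKM in all 5 populations of batch 3, against 21.3 to 14821 RPKM elsewhere. Of 6 erythrocyte markers 5 were higher, with a median of 8.50, and of 7 lung epithelium markers 6 were higher. All 7 oligodendrocyte precursor markers and all 7 neuroblast markers were lower, with medians of -3.46 and -3.22, and so were 7 of 8 neural stem cell and astroglial markers. Endothelial markers were lower in 5 of 7, pericyte and smooth muscle markers in 4 of 7 and ependymal markers in 1 of 7. The part of these markers in the differences of the members was not tested. In bulk RNA, more cells of a type and more RNA per cell cannot be told apart.

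**Figure D3:**
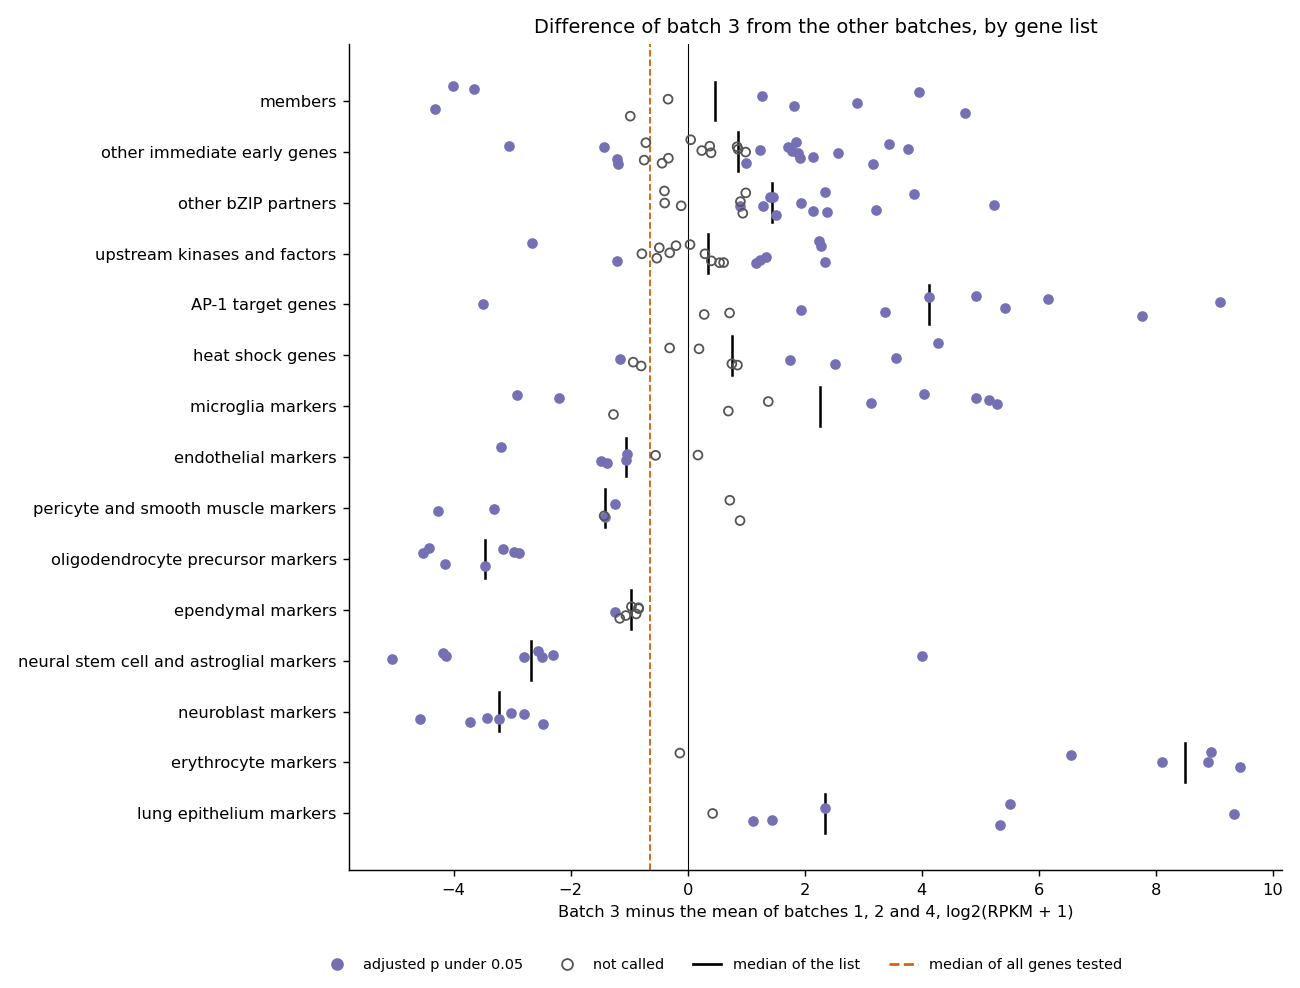
Difference between batch 3 and the mean of batches 1, 2 and 4 in log2(RPKM + 1) on the horizontal axis, 1 point per gene tested, for the members, the 5 lists of related genes and the cell type markers. Filled points had an adjusted p under 0.05, bars are list medians and the dashed line is the median of all genes tested at -0.64. AP-1 target genes have a median of 4.12, and the members lie on both sides, from -4.32 for Egr1 to 4.74 for Atf3.

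The other batches were compared with the rest in the same way. In batch 1 Fos (1.88) and Egr1 (2.68) were higher, where 2.13% of all genes were, and Fosl1 (-1.81) and Junb (-1.77) were lower, where 3.97% were. In batch 2 Fos (2.42), Fosb (2.09) and Egr1 (3.11) were higher, where 1.61% of all genes were, and Fosl1 (-1.76) was lower, where 3.39% were. Every one of these contrasts is set against a mean that contains batch 3, and with batch 3 left out all 8 of these calls were lost. Batch 1 then had 0 members called (1 at an unadjusted p under 0.05), where 0.25% of all genes were higher and 0.301% lower, with Fos at 0.62 (adjusted p = 0.587) and Egr1 at 1.39 (adjusted p = 0.319). Batch 2 had 0 members called (2 at an unadjusted p under 0.05), where 0.109% of all genes were higher and 0.159% lower, with Fos at 1.22 (adjusted p = 0.377) and Egr1 at 1.87 (adjusted p = 0.330). The Fos difference of batch 1 had an adjusted p of 0.0480 and lost its call when any of 14 of the 20 libraries was left out. In batch 4 Jun (-1.42), Junb (-0.96), Egr1 (-1.46) and Atf3 (-1.95) were lower, where 8.11% of all genes were, and 0 members were higher, where 43.3% of all genes were. The median over all genes of batch 4 was 0.82 higher, and 0.61 higher after median-of-ratios scaling. With batch 3 left out, 3 members were lower in batch 4, Egr1 (-3.27, adjusted p = 0.0021), Fos (-1.83, adjusted p = 0.0341) and Jun (-1.73, adjusted p = 0.0077), where 5.66% of all genes were, and 1 was higher, Fosl1 (1.05, adjusted p = 0.0264), where 29.7% were. Junb was then at 0.0071 and Atf3 at -0.41, neither called, and the median over all genes was 0.74. Jun and Egr1 were thus lower in batch 4 with and without batch 3, against a higher median of all genes. The Junb call of batch 4 was lost when any of 12 libraries was left out, and Jun kept its call in all 20 of these settings. AP-1 target genes were lower in 6 of 11 in both batch 1 and batch 2, with Il6 at -2.76 and -3.45 and Mmp13 at -2.53 and -2.50. In batch 4 they were lower in 5 of 11, with Hmox1 at -3.96, and higher in 1. For the other immediate early genes 0 higher and 3 lower were called in batch 1 (Myc, Gadd45b and Rhob), 0 in batch 2 (4 at an unadjusted p under 0.05) and 7 higher and 12 lower in batch 4, with Ier3 at -4.57, Nfkbia at -2.13, Myc at 1.70 and Sik1 at 1.59. The bZIP partners were lower in 2 of 18 in batches 1 and 2 and in 9 of 18 in batch 4, and higher in 0. With batch 3 left out, 0 genes of these 3 lists were called in batches 1 and 2 (0 to 5 of a list at an unadjusted p under 0.05). In batch 4, AP-1 target genes were then higher in 3 and lower in 0, the other immediate early genes higher in 6 and lower in 4, and the bZIP partners higher in 2 and lower in 5.

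Without batch 3 the batch term called 2 members, Jun and Egr1, against 20.6% of all genes tested. The median batch share of the members was then 24.1% and their median population share was 30.3%, beside 25.0% for each over all genes tested. Egr1 kept a batch share of 65.7% and Jun of 59.1%, whereas Fos had 29.6% between batches and 38.0% between populations. Fosb likewise had a larger share between populations than the 22.3% it had between batches. The test of any difference among the populations called 1 member, Atf3 (adjusted p = 0.0432), where 1.99% of all genes were called. With the replicate block its adjusted p was 0.0293. Population took 73.4% of the sum of squares of Atf3 and 3.20% lay between batches. Single contrasts without batch 3 did not reach the threshold. Atf3 differed from NSCs by -3.45 in GRP3 (SE 1.01, unadjusted p = 0.0037, adjusted p = 0.131). In PFMP Atf3 differed by -3.80 (SE 1.01, unadjusted p = 0.0018, adjusted p = 0.0786, and 0.0561 with the replicate block). Against the other gates, GRP2/MP3 exceeded GRP3 by 3.92 (adjusted p = 0.150) and PFMP by 4.27 (adjusted p = 0.123). In batches 1 and 2 alone, a choice made after the data were seen, Atf3 was called in PFMP against NSCs (-3.61, adjusted p = 0.0460) and was the only member called between progenitors.

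Atf3 was set beside the summed markers of each library. In batches 1, 2 and 4 the microglia sum was 141 to 14821 RPKM in BNAP/GRP1 and GRP2/MP3 and 21.3 to 150 RPKM in GRP3 and PFMP, which had the low Atf3 values. NSCs of the same batches had a microglia sum of 43.7 to 78.0 RPKM, within the range of GRP3 and PFMP, and Atf3 at 11.5 to 62.7 RPKM, above all of them. Oligodendrocyte precursor markers summed to 346 to 3497 RPKM in GRP3 and PFMP and to 17.9 to 151 RPKM in the other populations. Endothelial markers in these batches summed to 44.1 to 283 RPKM in NSCs, 80.0 to 128 RPKM in GRP2/MP3 and 5.32 to 18.9 RPKM in GRP3 and PFMP. In BNAP/GRP1 they summed to 9.17 to 71.6 RPKM, and the lowest, in batch 1, lay within the range of GRP3 and PFMP with Atf3 at 29.4 RPKM. The part of any of these sets of markers in the Atf3 levels was not tested. Gadd45b, whose profile over 20 libraries was closest to that of Atf3, had medians of 19.7 RPKM in NSCs, 4.72 in GRP3, 6.42 in PFMP, 51.1 in BNAP/GRP1 and 51.2 in GRP2/MP3, each over 4 libraries.

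**Figure D4:**
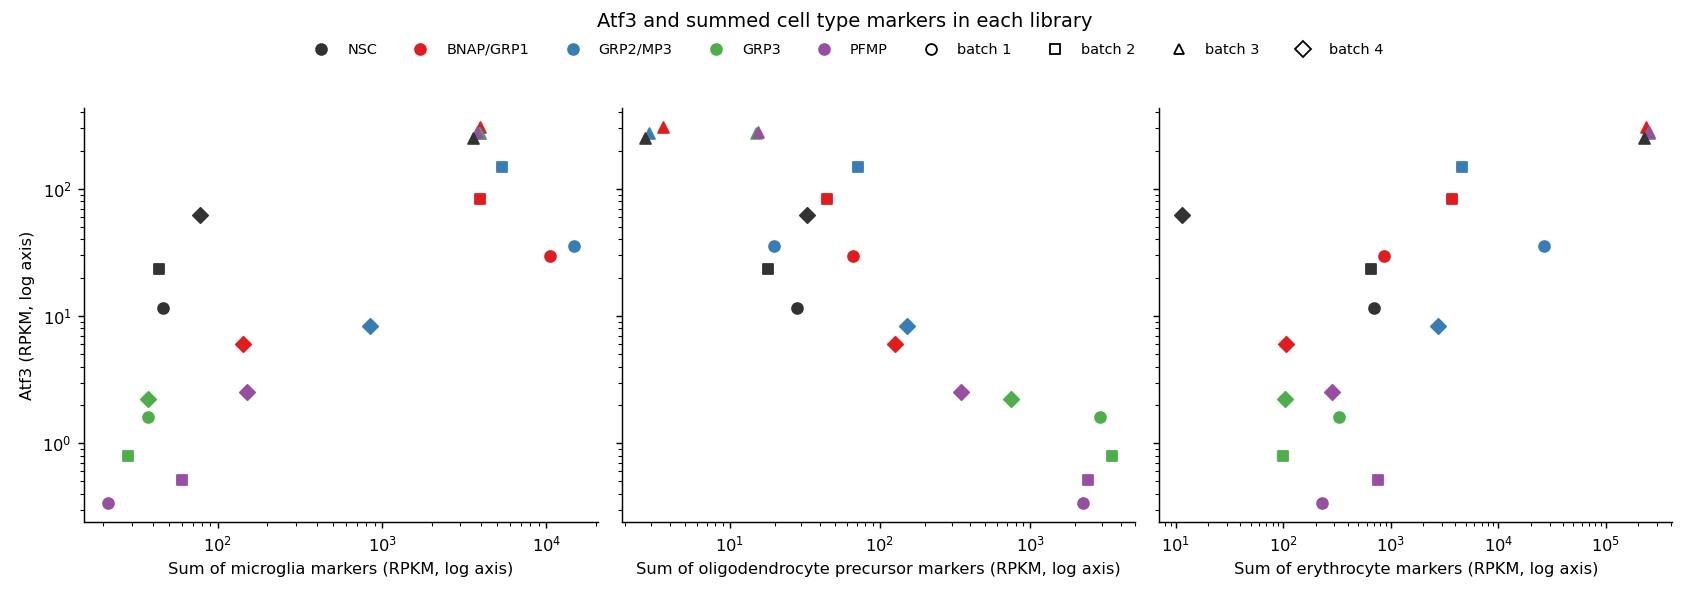
Atf3 in RPKM on a log axis against the summed RPKM of microglia, oligodendrocyte precursor and erythrocyte markers on log axes, 1 point per library, coloured by population and shaped by batch. The 5 triangles of batch 3 sit together at 252 to 305 RPKM of Atf3, and the 6 other GRP3 and PFMP libraries lie at 0.337 to 2.51 RPKM.

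The members also formed blocks of like profiles over the 20 libraries, which share batches and so are not independent. Fos correlated with Fosb at r = 0.92, with Egr1 at 0.91 and with Jun at 0.65. Junb correlated with Atf3 at 0.87 and with Jund at 0.80. Fos and Fosl1 ran opposite at -0.85. With the mean of each batch removed, Fos had r of 0.71 with Fosb, 0.72 with Egr1 and 0.82 with Jun, and Junb had 0.70 with Atf3. Fosb with Egr1 went from 0.82 to 0.36. The negative relation of Fos with Fosl1 was then -0.32, that of Fos with Junb went from -0.71 to -0.32, and Junb with Jund was 0.34. A single library, the one with the highest Fos, GRP2/MP3 of batch 2, also had the highest Fosb, Egr1, Jun, Fosl2 and Ier2 of all 20.

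**Figure D5:**
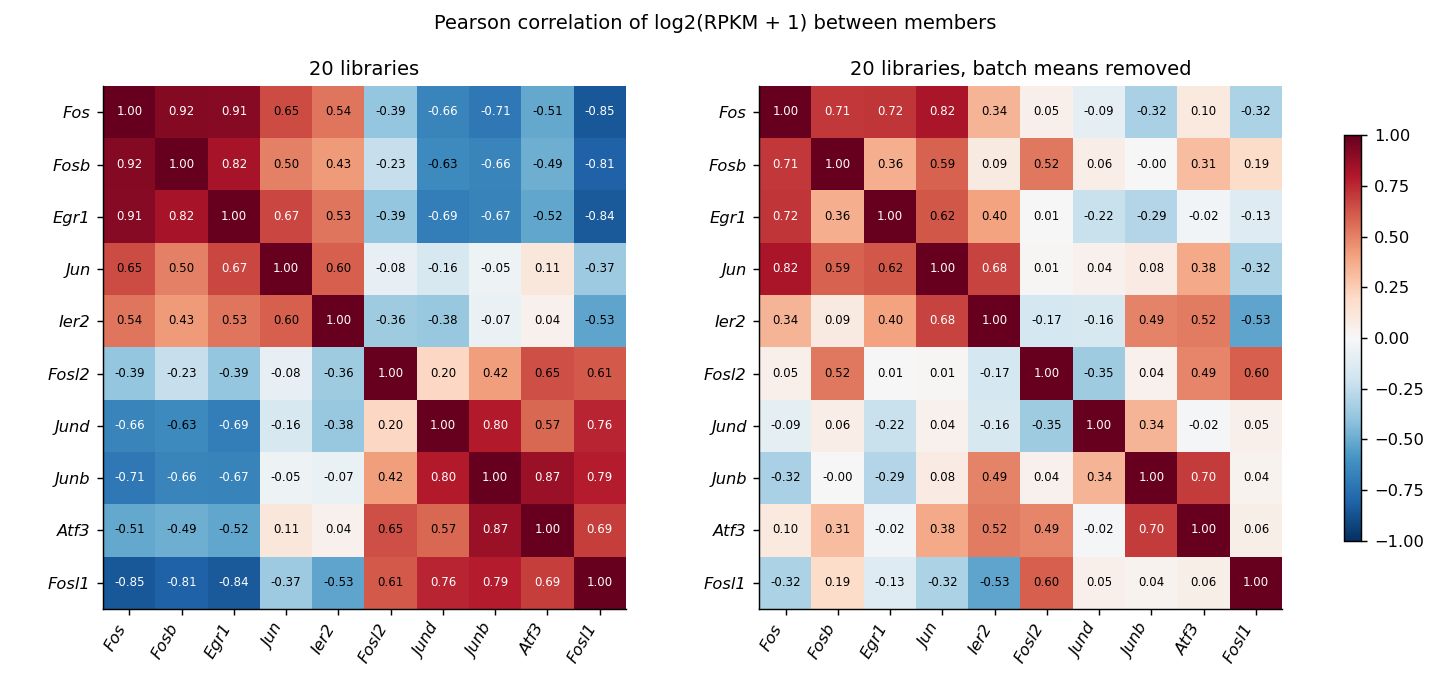
Pearson r of log2(RPKM + 1) between each pair of members over 20 libraries on the left and after the mean of each batch was removed on the right, from blue at -1 to red at 1. On the left Fos, Fosb and Egr1 form a positive block opposed to Junb, Atf3 and Fosl1. On the right Fos has 0.82 with Jun, 0.72 with Egr1 and 0.71 with Fosb, and Junb has 0.70 with Atf3. Fosb with Egr1 goes from 0.82 on the left to 0.36 on the right.

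Among all genes tested, the profiles most like that of Fos over 20 libraries were Pkp4 (r = 0.94), Tsn (0.93) and Hmgn1 (0.92). For Jun they were Ubald2 (0.90), Psmb5 (0.86) and Pgk1 (0.85), and for Jund they were Gm7808 (0.91), Slc27a1 (0.88) and Dgka (0.88). For Atf3 they were Gadd45b (0.94), Nfe2l2 (0.93) and Plin3 (0.93). With batch means removed the closest profiles were Chsy1 for Fos (0.92), Btg2 for Jun (0.86), Ubtf for Jund (0.84) and Tifa for Atf3 (0.96).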

How the data were processed

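RPKM values of 45705 genes were used as deposited. Per the labels and the study's methods, the authors amplified polyadenylated RNA of sorted cells, sequenced it, and processed reads with FastQC 0.11.9, cutadapt 3.4, STAR 2.6.1 and Salmon 1.9.0 on GRCm38 before RPKM values were deposited. DESeq2 1.26.0 is also in the submitters' processing notes, and how RPKM was computed is not given in the sources used here. Amplification of small RNA amounts can widen the spread of low genes. The table holds no read counts, so no count test was run and absolute depth is unknown. Relative depth, read from the steps between low values, was set to 1 for BNAP/GRP1 of batch 1. It ran from 0.0197 in BNAP/GRP1 of batch 4 to 1.41 in BNAP/GRP1 of batch 3, and may be off by a small whole-number factor. A further 26 columns matched no sample used here and were not used, and 0 of them held any value.

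The 27614 genes that reached 1 RPKM in 4 or more of the 20 libraries were tested with limma 3.58.1 in R 4.3.3 (trended empirical Bayes) on log2(RPKM + 1), so fold changes of low genes are understated. The population model had 1 mean per population and no batch term. Batches were tested in an additive model of population and batch, each against the mean of the other 3. With 1 library per population and batch their interaction could not be tested. P-values were adjusted by Benjamini-Hochberg over all genes tested, with a threshold of 0.05. Sums of squares were split by the same additive model. Scripts ran in Python 3.11.15 and were tested on simulated data with known changes.

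The replicate number in the labels is the batch, which pairs libraries across populations. Deviations from population means correlated within batches with medians of 0.337, 0.262, 0.769 and 0.581, and between batches with a median of -0.254. A fit with the batch as a replicate block, another pseudocount, no filter, median-of-ratios scaling and libraries or batches left out were the alternatives. No columns were identical.

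The 10 members and the lists were chosen with earlier results of these data known. Of each list, up to 4 genes per comparison past the threshold were named in order of p, or otherwise the 3 with the highest mean RPKM. For Fos, Jun, Jund and Atf3 the 3 genes with the highest Pearson r were named. Npas4 and Mmp10 did not pass the filter. Motifs were searched on both strands of RefSeq promoters.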

Additional observations from a re-analysis of the deposited data

Results flagged for a closer look

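Among 90 groups of 4 or 5 libraries, 10 had 1 library further from the rest than Dixon's 95% limit allows, and chance gives about 1 in 20. Within populations, 5 of these were libraries of batch 3. Fos in NSCs was 16.5 RPKM in batch 3 and 586 to 1078 RPKM in the other batches. Fosb in BNAP/GRP1 was 0.539 RPKM in batch 3 and 7.12 to 8.54 RPKM otherwise. Fosl1 was 23.4 RPKM in GRP2/MP3 of batch 3, against 0.0867 to 0.759 RPKM, and 19.3 RPKM in PFMP of batch 3, against 0 to 0.115 RPKM. Atf3 in GRP3 was 276 RPKM in batch 3 and 0.787 to 2.21 RPKM in the rest.

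Within batches the other 5 were single populations. Fosb in batch 1 was 74.4 RPKM in NSCs and 8.12 to 12.4 RPKM in the progenitors. In batch 2, GRP2/MP3 stood out with Fosl1 at 0.324 RPKM (0 to 0.0784 RPKM elsewhere) and Ier2 at 498 RPKM (90.2 to 147 RPKM elsewhere). In batch 3 Ier2 was 48.3 RPKM in NSCs and 58.8 to 61.2 RPKM in the others, and in batch 4 Fosl2 was 13.7 RPKM in BNAP/GRP1 and 1.59 to 2.85 RPKM in the others. That BNAP/GRP1 library had a median over all genes of 8.30 RPKM and the lowest relative depth of all libraries, 0.0197.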

How the results depend on the processing

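The counts of members called against NSCs stayed at 0 for BNAP/GRP1, GRP2/MP3 and GRP3 under every alternative run. With the batch as a replicate block, which uses the pairing of libraries, the genes called against NSCs were 719 for GRP3, 771 for PFMP, 576 for BNAP/GRP1 and 851 for GRP2/MP3, and 646 for any difference, in place of 290, 316, 210, 308 and 217, and the block changed no call of a member between populations. It added calls of Klf4 and Sik1 in PFMP and of Hsp90aa1 and Hsph1 among the heat shock genes. With a pseudocount of 0.1 they were 156 for GRP3, 75 for BNAP/GRP1, 174 for GRP2/MP3 and 102 for any difference, and 2 members were called in batch 4 in place of 4. Without a filter 25239 genes were called in batch 4 in place of 14209.

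3 alternatives were added after seeing the data. In batches 1 and 2 alone, 1354, 1635, 1476 and 1420 genes were called in BNAP/GRP1, GRP2/MP3, GRP3 and PFMP, 1708 for any difference and 710 between progenitors, with 1 member, Atf3, called in PFMP, for any difference and between progenitors. There Egr1 turned to 0.67 in BNAP/GRP1 and 1.05 in PFMP. With batch 3 left out and the replicate block the counts were 459, 745, 671, 692, 853 for any difference with 1 member, and 75 between progenitors, and Atf3 in BNAP/GRP1 turned to -0.038. With batch 3 left out of the batch comparisons, 152 genes and 0 members were called in batch 1 and 74 genes and 0 members in batch 2, and Junb in batch 4 turned to 0.0071. With median-of-ratios scaling Egr1 in PFMP turned to 0.0027, and calls of batch 4 were 77.0% higher in place of 84.2%.

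With 1 library or 1 batch left out, genes called ranged from 16 to 437 for BNAP/GRP1, 29 to 560 for GRP2/MP3, 44 to 516 for GRP3, 51 to 569 for PFMP, 11 to 550 for any difference and 0 to 2 between progenitors. For batches they ranged from 783 to 2879 in batch 1, 635 to 2765 in batch 2, 6734 to 16269 in batch 3 and 5697 to 19169 for the batch term. Members called ranged from 2 to 5 in batch 1, 3 to 5 in batch 2, 7 to 9 in batch 3, 1 to 4 in batch 4, 2 to 9 for the batch term and 0 to 1 for any difference. The median batch share of members ranged from 24.1% without batch 3 to 75.0%. Differences that changed sign were Egr1 in BNAP/GRP1 (-1.45 to 0.55), GRP2/MP3 (-1.01 to 1.55) and PFMP (-1.01 to 0.95), Atf3 in BNAP/GRP1 (-0.85 to 1.11) and GRP2/MP3 (-0.36 to 1.43), Fosb in GRP2/MP3 (-1.84 to 0.37) and Fos in GRP3 (-2.06 to 0.42), none of them past the threshold in the full data. The cause was not tested. Comparisons of 1 batch with the others were rerun with batch 3 left out and not with other batches left out. Of the batch calls, Fos in batch 1, Fosl2 in batch 3 and Junb in batch 4 were lost most often, and Ier2 in batch 3 was called without the BNAP/GRP1 library of batch 4 (adjusted p = 0.0384). Depth is unknown, so Fosl1 near 0 in batches 1 and 2 is at a level that cannot be told from none.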
